A study of Mus musculus with 36 samples.

Results

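The small leucine-rich proteoglycans (SLRPs) are a family of secreted matrix proteins, and 10 of their genes were followed here in mouse knee cartilage during post-traumatic osteoarthritis (OA). They are decorin (Dcn), biglycan (Bgn) and asporin (Aspn) of class I, fibromodulin (Fmod), lumican (Lum), Prelp, osteomodulin (Omd) and keratocan (Kera) of class II, and osteoglycin (Ogn) and epiphycan (Epyc) of class III. They were chosen by family membership, and they are 10 of the 23071 genes with a symbol in the count table. Where a gene has more than 1 RefSeq transcript, as Aspn and Dcn do, the transcript with the highest mean count over the 12 RNA libraries was used. The CpG cytosines of each gene and of the 5 kb on each side were read from the DNA methylation data.

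The tissue was articular cartilage, microdissected from the femoral condyles and tibial plateaus of male C57BL/6J mice. At 12 weeks of age their right knee received DMM surgery (destabilization of the medial meniscus), in which the ligament that anchors the medial meniscus is cut. The unoperated left knees of the same mice were the controls, with no sham surgery, and tissue was collected 4 or 12 weeks after the operation. RNA-seq gave 3 control and 3 DMM libraries at each time, each from 3 pooled knees, with 27706547 to 62737656 counts per library. Reduced representation oxidative bisulfite sequencing, which reads CpG cytosines near MspI sites, gave 3 control and 3 DMM libraries at each time from other mice, so RNA and methylation were not measured in the same animals.

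SLRP proteins share a curved core of leucine-rich repeats that binds fibrillar collagen and sets the diameter and spacing of its fibrils. Most carry glycosaminoglycan chains on that core, chondroitin or dermatan sulphate in decorin and biglycan and keratan sulphate in fibromodulin, lumican and keratocan, while asporin carries an aspartate stretch instead. Several bind TGF-beta as well, and in cartilage the family coats the collagen network of the articular surface and the matrix around chondrocytes.

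The SLRP genes lie in groups on the mouse genome (GRCm38). Dcn (chr10:97479500-97518163), Lum (chr10:97565501-97572703), Kera (chr10:97606962-97613688) and Epyc (chr10:97644068-97681908) follow each other on the plus strand with gaps of 47337, 34258 and 30379 bp. Aspn (chr13:49544443-49567565), Omd (chr13:49582462-49592612) and Ogn (chr13:49608015-49624501) are 14896 and 15402 bp apart, and all 3 lie inside Cenpp, a centromere protein gene on the opposite strand. The Aspn exons overlap Cenpp exons, and those of Epyc overlap Gm10754, so reads of these pairs cannot be told apart if strand was not used in counting, which is not given in the sources used here. Prelp (chr1:133910304-133930102, minus strand) and Fmod (chr1:134037254-134048280, plus strand) are 107151 bp apart, and Bgn (chrX:73483601-73495936) stands alone.

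The DNA stretches at which the methylation results turn are shown first. Each window runs along the plus strand of GRCm38, 30 bases to either side of the cytosines concerned, and the capitals mark CpG sites that were tested. The letters ccgg, the MspI site, stand in each of the 5 windows. The Fmod, Prelp and Bgn windows hold the 5 cytosines called at 12 weeks, and the Omd window holds the cytosine with the widest difference at that gene.
Fmod intron 1, chr1:134038781-134038843: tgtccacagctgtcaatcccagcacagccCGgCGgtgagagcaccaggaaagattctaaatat
Prelp intron 1, chr1:133917724-133917784: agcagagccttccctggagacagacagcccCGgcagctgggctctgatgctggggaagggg
Prelp upstream, chr1:133932108-133932168: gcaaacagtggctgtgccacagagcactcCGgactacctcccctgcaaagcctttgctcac
Bgn intron 1, chrX:73488329-73488389: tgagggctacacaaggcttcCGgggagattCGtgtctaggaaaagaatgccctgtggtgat
Omd intron 1, chr13:49586471-49586531: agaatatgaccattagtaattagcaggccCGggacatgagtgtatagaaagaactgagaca

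Levels between genes are given as CPM per kb, that is, counts scaled to a library size adjusted by TMM, edgeR's correction for library composition (CPM), and divided by transcript length in kilobases. Dcn was the most abundant SLRP mRNA in each of the 12 libraries, at 3923 ± 1879 (SD, n = 3) in control and 6817 ± 1944 in DMM limbs at 4 weeks, and at 2416 ± 826 and 4328 ± 1207 at 12 weeks. In control limbs Prelp, Lum, Bgn, Omd and Fmod followed in that order of mean level at both times. Neighbours in this order overlapped at 4 weeks, and at 12 weeks Lum and Bgn overlapped, as did Omd and Fmod, while Prelp and Lum nearly met and Bgn lay above Omd in every library. In DMM limbs at 4 weeks the order below Dcn was Lum, Bgn, Fmod, Omd and Prelp, and at 12 weeks it was Lum, Prelp, Fmod, Bgn and Omd, with neighbours overlapping except Lum and Bgn at 4 weeks. Aspn and Ogn lay below these, and Kera and Epyc were the lowest in every group. The 10 genes held 0.566 to 1.37% of all counts in control and 1.71 to 2.36% in DMM libraries at 4 weeks, and 0.494 to 0.863% and 0.986 to 1.56% at 12 weeks, without adjustment for composition. In bulk tissue such as this, fewer cells of a type and less RNA per cell cannot be told apart.

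**Figure D1:**
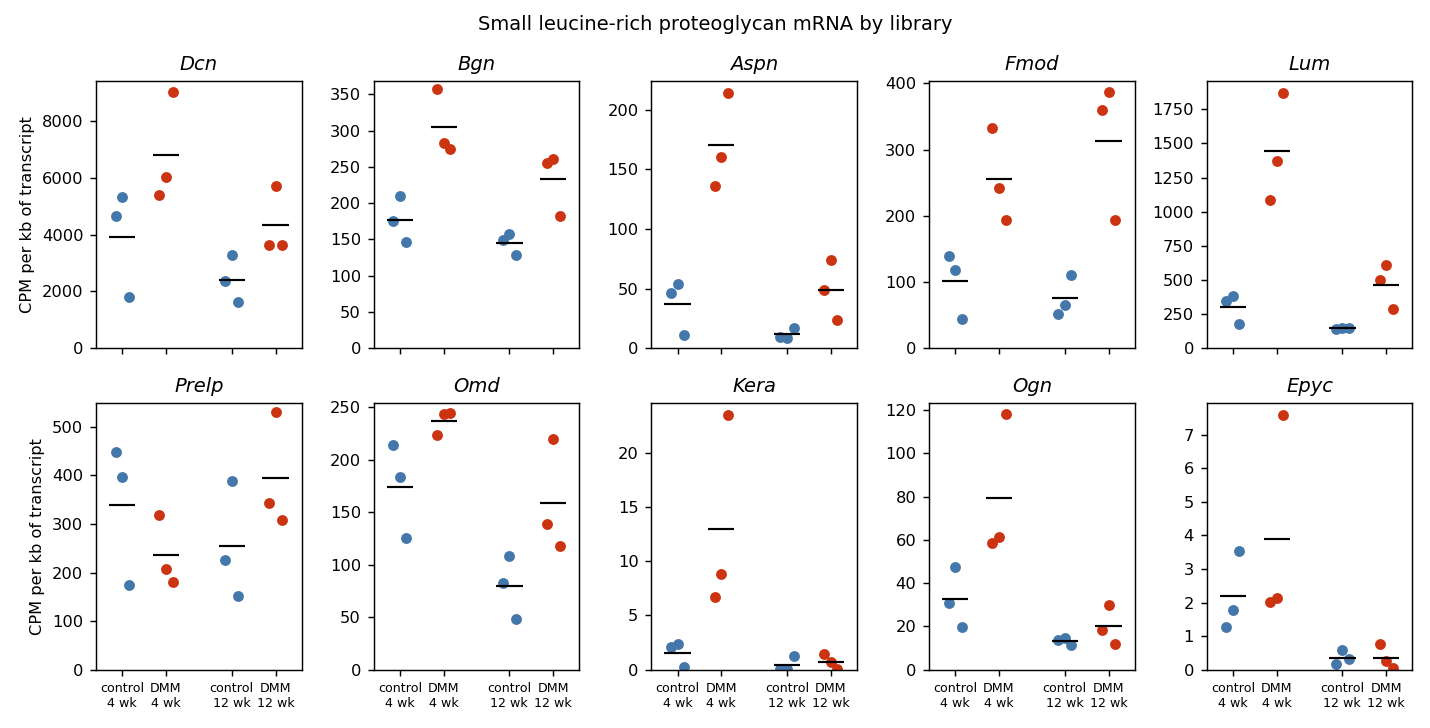
Each point is 1 RNA library and each bar the mean of 3, with the level in CPM per kb of transcript on a linear axis that starts at 0 and differs in scale between genes. All 3 DMM libraries lie above all 3 control libraries for 8 of the 10 genes at 4 weeks and 6 of the 10 at 12 weeks, and Prelp overlaps at both times.

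At 4 weeks the mRNA of most SLRPs read higher in the DMM libraries than in the control libraries, while the genes called depended on the test. For 8 of the 10 genes, all but Prelp and Epyc, every DMM library lay above every control library, an arrangement found in this direction in 10.8% of the 21140 transcripts tested. With edgeR's quasi-likelihood test and Benjamini-Hochberg adjustment over all transcripts, 0 of the 10 passed an adjusted p of 0.05, as did 0.0757% of transcripts. An unadjusted p under 0.05 was reached by 6 of them (Aspn, Bgn, Fmod, Lum, Ogn and Kera), against 13.7% of all transcripts. DESeq2, run as an alternative, called 5 higher (Aspn, Bgn, Fmod, Lum and Ogn), against 1.32% of transcripts called higher.

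Lum encodes a keratan sulphate proteoglycan that organizes collagen fibrils in cornea, skin and cartilage. Its level at 4 weeks was 342, 379 and 177 CPM per kb in control replicates 1 to 3 and 1085, 1371 and 1870.0 in DMM replicates 1 to 3. The lowest DMM library was well above the highest control library. The log2 fold change was 2.27 ± 0.38 (SE), or 4.81-fold, with an adjusted p of 0.180 by edgeR and 5.63e-08 by DESeq2, and 0.151% of the transcripts tested had a higher log2 fold change.

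Aspn encodes asporin, a class I member that, like several SLRPs, binds TGF-beta, and that restrains its signal in chondrocytes. The control libraries held 46.4, 53.6 and 10.7 CPM per kb at 4 weeks, and the DMM libraries held 136, 161 and 214. The groups were separate, with control replicate 3 far below the other 2 controls. That library also stood apart in tissue markers, with blood and bone marrow markers at a summed 32965 CPM (11597 and 18196 in control replicates 1 and 2), chondrocyte markers at 10859 (27373 and 20022) and tendon markers at 84.8 (256 and 265), and the part of this in the SLRP values was not tested. The log2 fold change was 2.21 ± 0.53, or 4.63-fold (adjusted p = 0.252 by edgeR, 0.00105 by DESeq2). Without control replicate 3, edgeR called Aspn (adjusted p = 0.0270) and Lum (0.0276), at smaller log2 fold changes of 1.76 and 1.99, among 118 transcripts called in that setting.

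Decorin and biglycan, the chondroitin or dermatan sulphate members of class I, differed less. Dcn measured 4669, 5314 and 1786 CPM per kb in control and 5398, 6019 and 9033 in DMM limbs at 4 weeks. The lowest DMM library stood just above the highest control, and the log2 fold change was 0.80 ± 0.47 (adjusted p = 0.433 by edgeR, 0.305 by DESeq2), and 0.44 without control replicate 3. Bgn measured 176, 209 and 147 CPM per kb in control limbs and 357, 283 and 275 in DMM limbs, again without overlap. Its log2 fold change was 0.78 ± 0.25 (adjusted p = 0.299 by edgeR, 0.0332 by DESeq2).

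Among the other class II genes, Fmod, whose protein binds collagen type I and II and guides fibril growth, measured 139.6, 118 and 44.8 CPM per kb in control and 333, 242 and 193 in DMM limbs at 4 weeks. All DMM libraries were higher, with a log2 fold change of 1.35 ± 0.43 (adjusted p = 0.298 by edgeR, 0.0394 by DESeq2). Omd, an acidic proteoglycan of mineralized tissue, measured 214, 184 and 126 in control and 224, 244 and 245 in DMM limbs. The groups met closely, and the log2 fold change was 0.44 ± 0.25 (adjusted p = 0.420 by edgeR).

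Prelp, a collagen binding member whose basic N-terminal region binds heparan sulphate, was the gene of the family with a negative fold change at 4 weeks. It measured 448, 398 and 174 CPM per kb in control and 319.7, 208 and 180.4 in DMM limbs. Control replicate 3 lay below all the DMM libraries, so the groups overlapped. The log2 fold change was -0.52 ± 0.40 (adjusted p = 0.537 by edgeR), a difference within the spread of the replicates.

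Ogn, also called mimecan, measured 30.7, 47.5 and 19.95 CPM per kb in control and 58.6, 61.4 and 118 in DMM limbs at 4 weeks. The DMM libraries were all higher, at a log2 fold change of 1.28 ± 0.38 (adjusted p = 0.273 by edgeR, 0.0399 by DESeq2). The corneal gene Kera was scarce, at 2.11, 2.41 and 0.229 CPM per kb in control and 6.70, 8.79 and 23.5 in DMM limbs. Its groups were separate as well, with the widest log2 fold change of the family, 3.04 ± 0.80 (adjusted p = 0.252 by edgeR, 0.0569 by DESeq2), and 2.31 without DMM replicate 3. Epyc, which marks growth plate cartilage, measured 1.26, 1.77 and 3.54 in control and 2.01, 2.13 and 7.57 in DMM limbs. These overlapped, at a log2 fold change of 0.81 ± 0.59 (adjusted p = 0.511 by edgeR) that turned to -0.09 without DMM replicate 3.

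At 12 weeks Aspn, Bgn, Dcn, Fmod, Lum and Omd again read higher in the DMM than in the control libraries, with no overlap between them. These 6 of 10 compare with 10% of the 21010 transcripts tested in this direction. edgeR called 0 of the 10 (0.00476% of transcripts were called), while the same 6 genes had an unadjusted p under 0.05, against 16.3% of transcripts. DESeq2 called 5 of them higher (Aspn, Bgn, Fmod, Lum and Omd), against 2.70% of transcripts.

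Fmod and Aspn had the widest log2 fold changes of the family at 12 weeks. Fmod measured 51.4, 65.4 and 111 CPM per kb in control and 361, 387 and 194 in DMM limbs. The lowest DMM library was above the highest control library, and the log2 fold change was 2.06 ± 0.36, or 4.16-fold (adjusted p = 0.119 by edgeR, 5.85e-07 by DESeq2). Lum measured 139, 151 and 148 in control limbs and 499, 606 and 289 in DMM limbs. The 3 controls lay within a narrow band that no DMM library approached, and the log2 fold change was 1.68 ± 0.27, or 3.199-fold (adjusted p = 0.0864 by edgeR, 1.09e-07 by DESeq2). Lum was called by edgeR when control replicate 2 was left out (adjusted p = 0.0394) and when DMM replicate 3 was left out (0.0129), settings with 860 and 102 transcripts called in all.

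Aspn at 12 weeks measured 9.40, 8.49 and 17.3 CPM per kb in control and 49.1, 74.0 and 23.8 in DMM limbs. The groups were separate, with DMM replicate 3 the closest to the controls. The log2 fold change, 2.07 ± 0.48 or 4.19-fold, was close to that at 4 weeks (adjusted p = 0.211 by edgeR, 5.14e-05 by DESeq2). Bgn measured 149, 157 and 128 in control and 255, 261 and 182 in DMM limbs. Its groups were separate, at a log2 fold change of 0.70 ± 0.19 (adjusted p = 0.219 by edgeR, 0.0157 by DESeq2).

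Dcn measured 2355, 3270.0 and 1622 CPM per kb in control and 3626, 5723 and 3637 in DMM limbs at 12 weeks. The groups were separate by a small margin, at a log2 fold change of 0.85 ± 0.31 (adjusted p = 0.274 by edgeR, 0.0620 by DESeq2). Omd measured 82.2, 109 and 47.9 in control and 139, 219 and 117 in DMM limbs. This too was without overlap, at a log2 fold change of 1.001 ± 0.33 (adjusted p = 0.256 by edgeR, 0.0469 by DESeq2).

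The remaining 4 genes overlapped between limbs at 12 weeks. Prelp measured 225, 388 and 151 CPM per kb in control and 344, 531 and 308 in DMM limbs, with control replicate 2 inside the DMM range. Its log2 fold change was 0.64 ± 0.36 (adjusted p = 0.391 by edgeR). Ogn measured 13.5, 14.5 and 11.4 in control and 18.4, 29.9 and 11.9 in DMM limbs, at a log2 fold change of 0.62 ± 0.30. Kera and Epyc were between 0.0396 and 1.46 CPM per kb in all 12-week libraries. Kera had 7, 8 and 90 counts in control and 135, 38 and 6 in DMM limbs, and Epyc had 12, 62 and 21 against 63, 12 and 3, so both spread widely within each group. Omitting single libraries moved the log2 fold change of Kera between -0.24 and 3.32 and that of Epyc between -1.36 and 0.57.

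**Figure D2:**
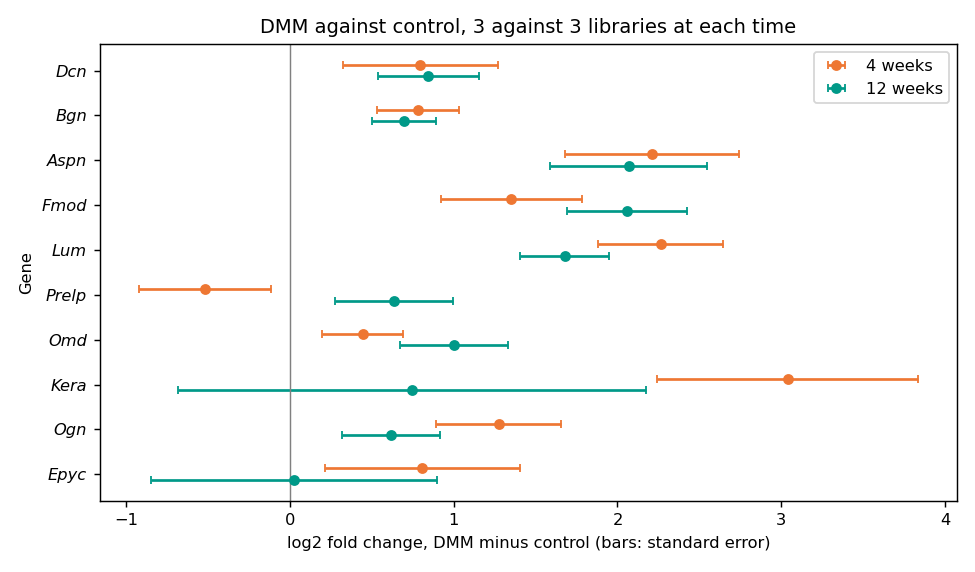
Points give the log2 fold change of DMM against control limbs (horizontal axis) for each SLRP gene at 4 weeks (orange) and 12 weeks (green), from 3 libraries a group. Bars give 1 standard error, derived from the F statistic of edgeR. Aspn and Lum lie near 2 at both times, and Prelp is at -0.52 at 4 weeks and 0.64 at 12 weeks.

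Whether the DMM effect differed between the 2 times was tested as the interaction of limb and week. By edgeR 0 of the 10 genes and 0% of 21618 transcripts passed, and no SLRP had an unadjusted p under 0.05, against 12.3% of transcripts. DESeq2 called 0 of the 10, against 0.0613% of transcripts. The gene with the lowest p was Prelp, whose log2 fold change was higher at 12 than at 4 weeks by 1.16 ± 0.59 (unadjusted p = 0.0719, adjusted p = 0.417 by edgeR). The difference for Fmod was 0.71 ± 0.60 and that for Lum was -0.60 ± 0.47, each near its own standard error.

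The limbs themselves differed between the times. Libraries of 4 and 12 weeks came from different mice, which also differed in age, and whether they were sequenced together is not given in the sources used here, so time, age and any batch cannot be told apart. In DMM limbs edgeR found 3 SLRP genes lower at 12 than at 4 weeks, against 11.7% of transcripts called lower. Lum fell by 1.68 on the log2 scale (SE 0.31, adjusted p = 0.00761), Aspn fell by 1.84 (SE 0.36, adjusted p = 0.00871) and Ogn fell by 2.03 (SE 0.37, adjusted p = 0.00775). In each of these 3 genes all the 12-week DMM libraries were below all the 4-week DMM libraries, and each stayed called when any 1 library was left out. Bgn, Omd, Epyc and Kera were also without overlap and lower at 12 weeks, so that 7 of 10 genes were arranged in this way, against 19.4% of transcripts. Epyc and Kera were called when DMM replicate 1 of 12 weeks was left out (adjusted p = 0.0106 and 0.0174 by edgeR, with 2971 transcripts called in all), and Kera also when DMM replicate 3 of 12 weeks was (0.0343, with 2017). Omd was called without DMM replicate 2 of 12 weeks (adjusted p = 0.0300, with 2756). Markers of other cell types moved in the same comparison, and their part was not tested: of 13 fibroblast and synovium markers 7 were called lower and 2 higher (median log2 fold change -1.47), and of 5 macrophage markers 4 were called lower (median -1.32). All 5 macrophage and 10 of the 13 fibroblast markers were lower without overlap. Chondrocyte markers had a median of 0.48, with 4 of 15 called higher. Over all transcripts 11.7% were called lower and 12.1% higher, and 19.4% were lower without overlap.

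Fmod and Prelp stood apart in this comparison, with log2 fold changes above 0 in DMM limbs from 4 to 12 weeks. The value was 0.25 ± 0.30 for Fmod (adjusted p = 0.556 by edgeR) and 0.69 ± 0.28 for Prelp (adjusted p = 0.0984, and 0.0180 without DMM replicate 1 of 4 weeks). DESeq2 called 7 SLRP genes lower (13.2% of transcripts) and Prelp higher (15.8% of transcripts). edgeR called 0 of the 10 higher, against 12.1% of transcripts, and 0 of the 10 were higher without overlap, against 23.7%.

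In control limbs edgeR called 0 of the 10 genes and 0% of 21222 transcripts between the times, while 5 of the 10 had an unadjusted p under 0.05, against 21.2% of transcripts. Lum, Omd, Ogn and Epyc were lower in every 12-week than in every 4-week control library, an arrangement found in 10.9% of transcripts. Their log2 fold changes were -1.05 ± 0.31, -1.15 ± 0.34, -1.33 ± 0.31 and -2.61 ± 0.58 (adjusted p = 0.137, 0.140, 0.0998 and 0.0920 by edgeR). DESeq2 called these 4 and Aspn lower (6.14% of transcripts), and so did edgeR without control replicate 3 of 4 weeks, a setting with 3926 transcripts called, 2091 of them higher, where all libraries gave 0. In the same comparison 7 of 13 fibroblast and synovium markers were lower and 2 higher without overlap (median -1.01), and 4 of 12 blood and bone marrow markers were higher without overlap (median 0.90), against 10.9% of transcripts lower and 16.5% higher, and the part of this in the SLRP values was not tested. These comparisons share their libraries with those of the limbs, so they are not independent of them.

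The SLRP genes did not all vary together over the 12 libraries, which include both limbs and both times. On log2 CPM, Pearson's r was 0.97 between Aspn and Lum, 0.92 between Bgn and Lum and 0.90 between Aspn and Kera. Prelp had an r of 0.10 with Aspn and 0.05 with Lum. These values are descriptions of 12 points that share groups and library preparation.

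The genes most like each SLRP over the same 12 libraries, out of 15588 genes, were found by Pearson's r on log2 CPM. Aspn was most like Matn2 (matrilin-2, a matrix adaptor protein; r = 0.989), Ankrd29 and Ly6a, and Lum was most like Mmp19 (a matrix metalloproteinase; r = 0.984), Antxr1 and Agmo. Fmod was most like Emilin3 (an elastic fibre protein), Gldn and Ptgs2 (the inducible prostaglandin synthase), each with an r of 0.946. Prelp was most like Rarg (a retinoic acid receptor; r = 0.987), Arhgap44 and Slc38a3. Bgn was most like Tmem119, Col6a3 and Mmp2, and Kera was most like Itgbl1, Apod and Sgcb. Dcn was most like Ugdh, which makes the UDP-glucuronic acid that glycosaminoglycan chains are built from, with Stxbp6 and Nupr1 next. Omd was most like Jam3, Pigf and Kdelr3, Ogn was most like Sptbn1, Calu and Cpd, and Epyc was most like Sh3glb1, Ugcg and Cnot6.

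Other leucine-rich repeat matrix genes were read beside these 10: Chad, Chadl, Podn, Podnl1, Ecm2, Tsku, Nyx, Optc, Lrrc17 and Lrrc15. Wider definitions of the SLRP family hold several of them, so the list is not a group outside the family. Of 10 listed, 8 were tested, and at 4 weeks edgeR called 1, against 0.0757% of transcripts. This was Lrrc15, with a log2 fold change of 3.48 ± 0.36 (adjusted p = 0.0491). The call was lost with 1 transcript per gene and without control replicate 2 or any single DMM library, settings in which 0 transcripts were called. At 12 weeks edgeR called 0 of the 8 (0.00476% of transcripts), with Lrrc15 at 3.23 ± 0.71 (adjusted p = 0.211), Lrrc17 at 1.82 ± 0.34 and Chadl at 0.87 ± 0.36. DESeq2 called 2 higher and 1 lower at 4 weeks (1.32% and 2.12% of transcripts), and 2 higher at 12 weeks (2.70%). From 4 to 12 weeks in DMM limbs, edgeR called 3 of the 8 lower and 0 higher, against 11.7% and 12.1% of transcripts. The median log2 fold change of the list was 0.06 at 4 weeks and 0.69 at 12 weeks, beside medians of -0.03 and 0.01 over all transcripts. Values were above 0 in 5 of the 8 at 4 weeks and in 8 of 8 at 12 weeks. This was so for 9 and 10 of the 10 SLRP genes followed here and for 47.5% and 51.5% of all transcripts. In the lists below, 8 and 7 of 9 fibrillar collagens and 8 and 8 of 10 proteases were above 0. So were 12 and 10 of 13 fibroblast and synovium markers. Fewer were at 4 weeks among chondroitin and dermatan sulphate chain enzymes (4 of 20) and chondrocyte markers (2 of 15).

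The fibrillar collagens that SLRPs coat were tested as 9 genes, of which edgeR called 0 at either time (0.0757% and 0.00476% of transcripts). At 4 weeks 4 of the 9 were higher and 1 lower in every DMM library, against 10.8% and 10.4% of transcripts. At 12 weeks 2 were higher and 0 lower, against 10% and 8.85%. DESeq2 called 1 higher at 4 weeks and 2 at 12 weeks, against 1.32% and 2.70% of transcripts. Col3a1, which forms thin fibrils with type I collagen, had log2 fold changes of 1.48 ± 0.66 at 4 weeks and 2.29 ± 0.41 at 12 weeks. Col5a1, which starts fibril assembly, had 0.92 ± 0.19 and 0.99 ± 0.24. Col11a2 was at -0.85 ± 0.33 at 4 weeks, and Col2a1, the main collagen of cartilage, was at 1.01 ± 0.37 at 12 weeks. The list medians were 0.21 and 0.65. From 4 to 12 weeks in DMM limbs, edgeR called 2 of the 9 higher and 0 lower, against 12.1% and 11.7% of transcripts.

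Of the 20 enzymes that build or modify chondroitin and dermatan sulphate chains, edgeR called 0 at 4 and at 12 weeks. Over all transcripts it called 0.0757% and 0.00476%. By DESeq2 1 of the 20 was called higher at 4 weeks and 2 at 12 weeks, against 1.32% and 2.70% of transcripts. The fold changes of 4 of the 20 were above 0 at 4 weeks (median -0.29), against 47.5% of all transcripts. At 12 weeks those of 19 of the 20 were (median 0.31), against 51.5%. Chondrocyte markers, given below, went the same way at both times. Xylt1, which adds the first sugar of the chain, was at -1.27 ± 0.44 at 4 weeks and 0.94 ± 0.30 at 12 weeks. Dsel, an epimerase that turns chondroitin into dermatan sulphate, was at 0.98 ± 0.23 at 4 weeks, where Chst12 was at -0.73 ± 0.33. Chpf and Chsy3, of the chain polymerase family, were at 0.79 ± 0.26 and 0.78 ± 0.30 at 12 weeks. Between the DMM limbs of both times, 8 of these enzymes rose at 12 weeks and 2, Dse and Dsel, fell, against 12.1% and 11.7% of all transcripts.

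Of the 9 enzymes of keratan sulphate and tyrosine sulphation, edgeR called 0 at each time (0.0757% and 0.00476% of transcripts). Their medians were -0.12 and 0.10. By DESeq2 0 were called at 4 weeks, and 1 higher and 1 lower at 12 weeks, among 866 transcripts called there in all. At 4 weeks Chst5 was at -0.82 ± 0.40, Chst1 at -0.80 ± 0.47 and Tpst2 at -0.35. At 12 weeks Chst2 was at 0.99 ± 0.23, B3gnt7 at -0.88 ± 0.24 and Chst1 at 0.74 ± 0.34. From 4 to 12 weeks in DMM limbs 5 of the 9 rose and 1, Chst2, fell, against the same 12.1% and 11.7%.

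Of 10 proteases known to cut SLRPs or their propeptides, edgeR called 0 at 4 and at 12 weeks (0.0757% and 0.00476% of transcripts). Mmp3, a stromelysin, was at 3.68 ± 0.74 at 4 weeks and 2.13 ± 0.43 at 12 weeks. Mmp2 was at 1.41 ± 0.31 and 1.15 ± 0.26, Mmp13 was at 0.93 ± 0.46 at 4 weeks and Htra1 at 0.97 ± 0.37 at 12 weeks. DESeq2 called 2 of the 10, Mmp2 and Mmp3, higher at each time, against 1.32% and 2.70% of transcripts. From 4 to 12 weeks in DMM limbs 3 of the 10, Tll1, Mmp13 and Adamts5, fell (11.7% of transcripts). The list medians were 0.33 and 0.36.

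TGF-beta ligands and receptors, which several SLRPs bind, had 0 of 8 genes called by edgeR at either time (0.0757% and 0.00476% of transcripts). By DESeq2 0 were called higher at 4 weeks and 1 at 12 weeks, against 1.32% and 2.70% of transcripts. Their log2 fold changes at 4 weeks were -0.70 ± 0.34 for Tgfbr3, -0.63 ± 0.27 for Tgfb1 and 0.44 for Tgfb2. At 12 weeks Bmp2 was at 0.86 ± 0.38, Tgfb3 at 0.68 ± 0.23 and Tgfb2 at 0.63 ± 0.16. From 4 to 12 weeks in DMM limbs 2 of the 8, Tgfb1 and Bmp2, rose (12.1% of transcripts). The list medians were 0.05 and 0.33.

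Markers of other cell types moved with the limbs, and their part in the SLRP values was not tested. The chondrocyte markers that define cartilage were all present, with medians of -0.81 at 4 weeks and 0.54 at 12 weeks on the log2 scale. Of the 15, 2 were above 0 at 4 weeks and 15 at 12 weeks. In every DMM library, 3 were lower at 4 weeks and 1 higher at 12 weeks, against 10.4% and 10% of transcripts. Their sums overlapped, at 10859 to 27373 CPM in control and 7708 to 14568 in DMM limbs at 4 weeks, and 6229 to 16934 and 13671 to 21006 at 12 weeks. Of 13 fibroblast and synovium markers, 8 at 4 weeks and 7 at 12 weeks were higher in every DMM library, against 10.8% and 10% of transcripts, and 1 was lower in every DMM library at each time, against 10.4% and 8.85%. Their median log2 fold changes were 1.12 and 1.34, and edgeR called 0 and DESeq2 5 and 6 of them higher (1.32% and 2.70% of transcripts). Their summed CPM ran from 2457 to 4454 in control and 4872 to 7278 in DMM limbs at 4 weeks, and from 4254 to 8612 and 6045 to 8567 at 12 weeks, where it overlapped. Of 9 osteoblast and osteocyte markers, 4 and 5 were higher in every DMM library, against the same shares, and their sums were separate between limbs at both times (3936 to 6469 against 7553 to 8715 CPM, and 2723 to 4219 against 5044 to 7003). By DESeq2 1 and 4 of these 9 markers were called higher at 4 and 12 weeks, against 1.32% and 2.70% of transcripts. Col1a1 and Col3a1 are on both the fibroblast and synovium list and the list of fibrillar collagens.

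For all 11 skeletal muscle markers, each 4-week DMM library was below each control library of that time, against 10.4% of transcripts. Their median log2 fold change was -2.62. Of the 11, edgeR called 1, Myh1 (-3.80 ± 0.45, adjusted p = 0.0491), against 0.0757% of transcripts. That call was lost in the same 5 settings as that of Lrrc15, and DESeq2 called 8 of the 11 lower, against 2.12% of transcripts. Their sum was 5642 to 20309 CPM in control and 483 to 3315 in DMM limbs at 4 weeks, and it overlapped at 12 weeks, at 83.3 to 14489 and 530 to 10894. Of 4 tendon and ligament markers, 2 were higher in every DMM library at 4 weeks and 1 at 12 weeks (10.8% and 10% of transcripts). The 12 blood and bone marrow markers overlapped at both times, at 11597 to 45641 CPM over all libraries. The macrophage list, of which 5 of 6 genes were in the table, had 0 of 5 genes without overlap at 4 weeks and 3 of 5 lower in every DMM library at 12 weeks, against 8.85% of transcripts. Of 5 endothelial markers 1 was higher without overlap at 4 weeks (10.8% of transcripts), and of the adipocyte markers 0 were at either time. No marker gene had a count of 0 in all the libraries of a group.

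Promoter sequences, from RefSeq on GRCm38.p6, were matched for 8 of the 10 genes, leaving Dcn and Lum unmatched. The 250 bases before the start are shown for Aspn and Fmod, which had the widest log2 fold changes at 12 weeks, and for Bgn. The capitals mark matches, on either strand, to the motifs searched: TGANTCA for AP-1, CAGAC for SMAD factors, AACAAT for SOX factors, ACAAAG as a further SOX form, and TATAAA for the TATA box. The Aspn stretch holds the first SOX form, and TATAAA at -207 and -178 bases from the start. The Fmod stretch holds the SMAD motif, and the Bgn stretch holds none of the motifs searched.
Aspn, chr13:49544193-49544442, plus strand: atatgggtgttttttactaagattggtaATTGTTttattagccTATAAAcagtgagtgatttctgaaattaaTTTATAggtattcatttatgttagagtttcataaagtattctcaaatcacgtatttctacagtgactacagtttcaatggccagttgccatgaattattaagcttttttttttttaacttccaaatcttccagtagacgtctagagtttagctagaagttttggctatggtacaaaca
Fmod, chr1:134037004-134037253, plus strand: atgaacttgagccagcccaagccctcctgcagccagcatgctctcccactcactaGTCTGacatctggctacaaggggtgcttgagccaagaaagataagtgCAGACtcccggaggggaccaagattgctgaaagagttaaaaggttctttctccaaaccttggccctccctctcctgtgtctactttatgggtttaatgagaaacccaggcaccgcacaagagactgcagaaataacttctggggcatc
Bgn, chrX:73483351-73483600, plus strand: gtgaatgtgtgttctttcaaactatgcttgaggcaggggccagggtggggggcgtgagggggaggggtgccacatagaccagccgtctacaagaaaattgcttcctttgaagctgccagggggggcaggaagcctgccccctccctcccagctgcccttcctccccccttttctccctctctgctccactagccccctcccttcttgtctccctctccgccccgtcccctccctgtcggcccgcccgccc
The GC content of the 300-base promoters was 31.0% for Aspn, 51.0% for Fmod and 63.7% for Bgn, beside a median of 52.7% over all promoters. It was 55.3% for Prelp, 41.0% for Kera, 37.7% for Omd, 42.3% for Ogn, and 40.3% and 32.3% for the Epyc promoters. The 8 genes had 9 promoters, since Epyc had 2. AACAAT was found in 6 of the 9, which belong to 5 of the 8 genes (Prelp, Kera, Epyc, Aspn and Ogn), against 10.7% of 32851 promoters of this length, and TATAAA in 2 (Aspn and Ogn), against 13.6%. CAGAC was found in 2 (Prelp and Fmod), against 49.6%, ACAAAG in 2 (Kera and Epyc), against 18.7%, and TGANTCA in 0, against 7.81%. The TATAAA matches on both strands share letters in Ogn, at -229 and -227 bases from the start. AACAAT and TATAAA are rich in A and T, and the part of base composition in these counts was not tested. A match is a description of the sequence only.

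DNA methylation could be read at 6 of the 10 genes. A cytosine was tested when each of the 6 oxBS libraries of a time had at least 10 reads there, and oxBS reads true 5-methylcytosine (5mC). The SLRP regions held 61 tested cytosines of 1445146 at 4 weeks and 67 of 1273156 at 12 weeks. Fmod had 29 and 29, Prelp 12 and 14, Bgn 8 and 10, Epyc 5 and 5, Omd 4 and 5, and Dcn 3 and 4. Aspn, Lum, Ogn and Kera had none, with 7, 5, 5 and 3 MspI sites in their regions against 31 at Fmod and 30 at Prelp. In any single oxBS library at most 2 cytosines of Aspn, 1 of Lum and 0 of Ogn and Kera had a listed value. Lum and Aspn, which after Kera had the highest fold changes at 4 weeks, were therefore not tested here.

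At 4 weeks 0 of the 61 SLRP cytosines differed between limbs by at least 25 percentage points with a q under 0.05, against 0.000554% of all tested cytosines. The widest difference was -14.9 points, at Fmod. The median difference of DMM minus control was -1.76 points, and 38 of the 61 were lower in DMM limbs, while over all cytosines the median was 0 and 48.9% were lower. Over the cytosines with 20 to 80% methylation, a range chosen after the values were seen, 27 of 43 SLRP cytosines were lower with a median of -1.76 points, beside 57.7% and -1.05 points over 283425 cytosines in all.

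At 12 weeks 5 of the 67 were called, all of them lower in DMM limbs, against 0.227% of all tested cytosines called and 0.200% called lower. The median difference was -8.46 points and 50 of the 67 were lower, against 46.1% of all cytosines. Cytosines of the same gene lie on the same DNA and share reads, so these are not 67 independent values. In the range of 20 to 80% methylation, the median was -13.0 points for 47 SLRP cytosines, 40 of them lower. It was -4.28 points for 263422 cytosines in all, of which 68.7% were lower and 1.09% were called.

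In intron 1 of Fmod, 2 cytosines in neighbouring CpGs of the window shown above were called lower after DMM. The plus-strand cytosine of the first CpG, chr1:134038810, was also tested and was not called. At the cytosine chr1:134038813 on the plus strand, 1559 bases from the transcript start, 5mC was 58.0% (69 reads), 51.2% (41) and 54.8% (31) in control replicates 1 to 3. In the DMM replicates it was 28.7% (108), 34.1% (44) and 29.6% (54). Every DMM library was below every control library, the pooled difference was -25.2 points and q was 0.00194. At chr1:134038811 on the minus strand it was 55.3% (47 reads), 38.1% (21) and 57.1% (42) in control and 27.1% (48), 28.6% (21) and 21.4% (42) in DMM limbs. These groups did not overlap either, with a difference of -27.5 points and q of 0.00732. At 4 weeks the pooled differences at these 2 cytosines were -4.84 and -2.26 points.

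Intron 1 of Prelp held a called cytosine at chr1:133917754, where control libraries read 34.6% (26 reads), 12.0% (25) and 73.7% (19) and DMM libraries 7.29% (96), 19.4% (31) and 16.2% (37). The groups overlapped and control replicate 3 stood apart, at a difference of -25.6 points (q = 0.00492). The other lay upstream of the annotated gene start, at chr1:133932138, with 75.6%, 61.5% and 76.5% in control and 32.5%, 62.1% and 46.7% in DMM limbs. It overlapped as well, at -28.4 points (q = 0.0141). In intron 1 of Bgn, chrX:73488359 read 65.2% (23 reads), 63.6% (11) and 46.2% (26) in control and 28.6% (21), 42.1% (19) and 16.1% (31) in DMM limbs. Here the groups were separate, at -29.9 points and q of 0.0452.

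Omd had no called cytosine, but all 5 tested in its intron 1 were lower in DMM limbs at 12 weeks. At 3 of them q was under 0.05 with differences of -21.3, -22.9 and -24.8 points. The last of these, chr13:49586501 in the window shown above, read 50%, 39.3% and 55.3% in control and 26.5%, 33.3% and 16.7% in DMM limbs (q = 0.00531), without overlap. The logistic test pools reads and does not carry the spread between libraries. With a correction for overdispersion, 0 of the 67 were called, and 0 of the 1273156 tested in all.

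**Figure D3:**
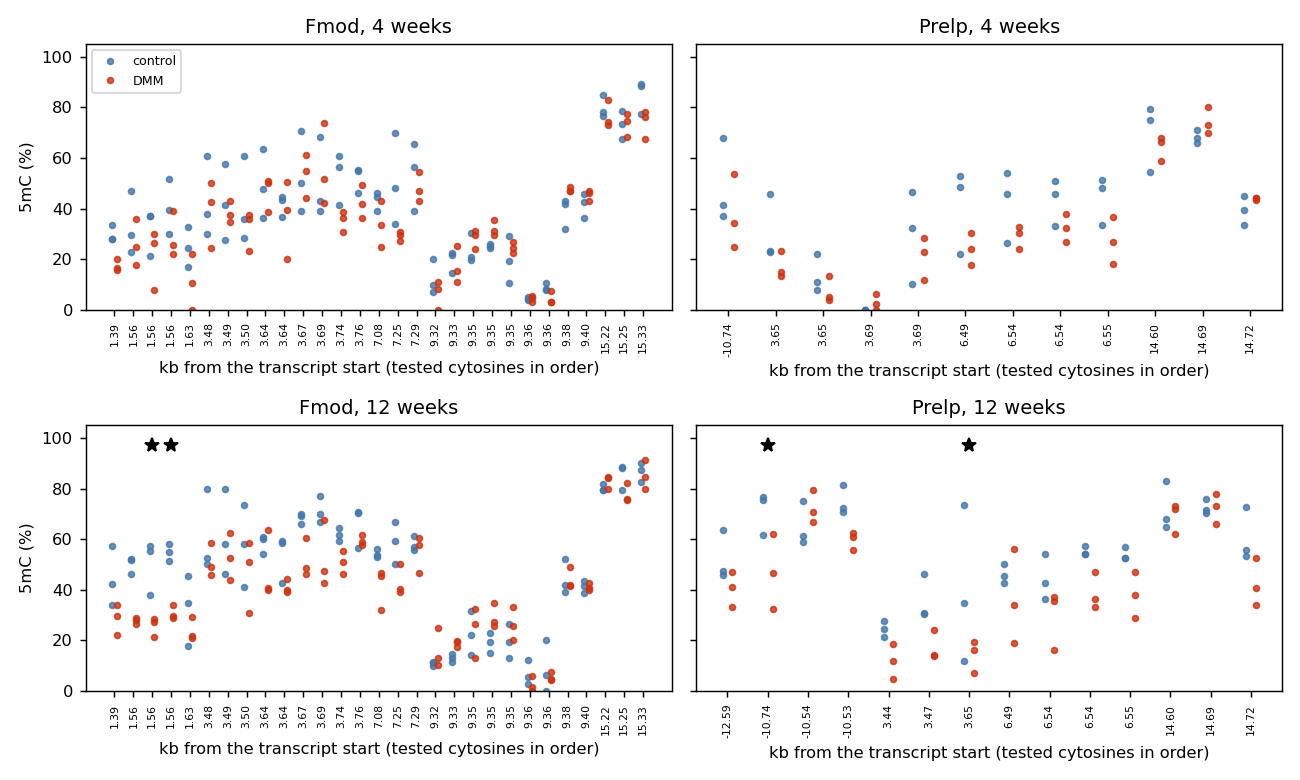
The 5mC level (percent, vertical axis) of each tested cytosine of Fmod (left) and Prelp (right) in each of 3 control (blue) and 3 DMM (red) oxBS libraries at 4 weeks (top) and 12 weeks (bottom), in order of distance in kb from the start of the counted transcript, with stars at called cytosines. The 2 starred Fmod cytosines at 12 weeks have DMM libraries between 21.4 and 34.1%, below all control libraries, and no cytosine is starred at 4 weeks.

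Averaged over the tested cytosines of a gene, 5mC at 12 weeks was lower in all DMM than in all control libraries at Fmod, Prelp, Omd and Bgn, or 4 of the 6 genes with tested cytosines. The same arrangement held at 26% of 17531 protein-coding genes with at least 3 tested cytosines, so it was common in the series. Those genes had a median of 58 tested cytosines, more than the 4 to 29 of the SLRP genes. For Fmod it was 45.3, 49.2 and 50.4% in control and 39.7, 44.0 and 38.9% in DMM limbs, a difference of -7.46 points. For Prelp it was 55.3, 51.3 and 58.1% against 39.2, 47.2 and 39.9% (-12.8 points). The groups were separate at both genes, and the margin at Omd was wider. Omd read 39.0, 47.6 and 54.9% in control and 24.1, 29.4 and 23.0% in DMM limbs (-21.7 points), and Bgn read 35.2, 31.4 and 34.6% against 23.8, 28.2 and 22.5% (-8.84 points). Each of these 4 had an exact two-sided permutation p of 0.1, the smallest that 3 libraries against 3 can give.

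Epyc went the other way at 12 weeks, from 94.8, 88.0 and 93.7% in control to 95.7, 96.8 and 96.1% in DMM limbs, with the DMM libraries higher (4.04 points, exact permutation p = 0.1), as at 3.95% of genes. Dcn read 66.2, 59.5 and 59.9% against 50.8, 56.5 and 64.6% and overlapped (-4.56 points, exact permutation p = 0.4), and the difference turned to 6.29 points with at least 20 reads or in the gene body alone. Within 1 kb of the Bgn start, 5 tested cytosines averaged 17.9 ± 3.3% in control and 9.51 ± 3.29% in DMM limbs (SD, n = 3), without overlap (exact permutation p = 0.1). Over all cytosines tested at 12 weeks the mean 5mC was 29.7 to 30.3% in control and 28.8 to 29.5% in DMM libraries.

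At 4 weeks the gene means overlapped between limbs at all 6 genes, and over all genes 6.29% were lower and 2.10% higher without overlap. The widest difference was at Omd, which read 42.6, 17.8 and 32% in control and 25.9, 10.3 and 18.6% in DMM limbs (-12.6 points, exact permutation p = 0.3). These means weight each library equally, and with reads pooled its 4 cytosines differed by -6.50 to -1.36 points. Fmod differed by -4.65 and Prelp by -7.44 points. Bgn differed by -6.72 and Dcn by -6.86 points, and Epyc by 1.85 points.

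**Figure D4:**
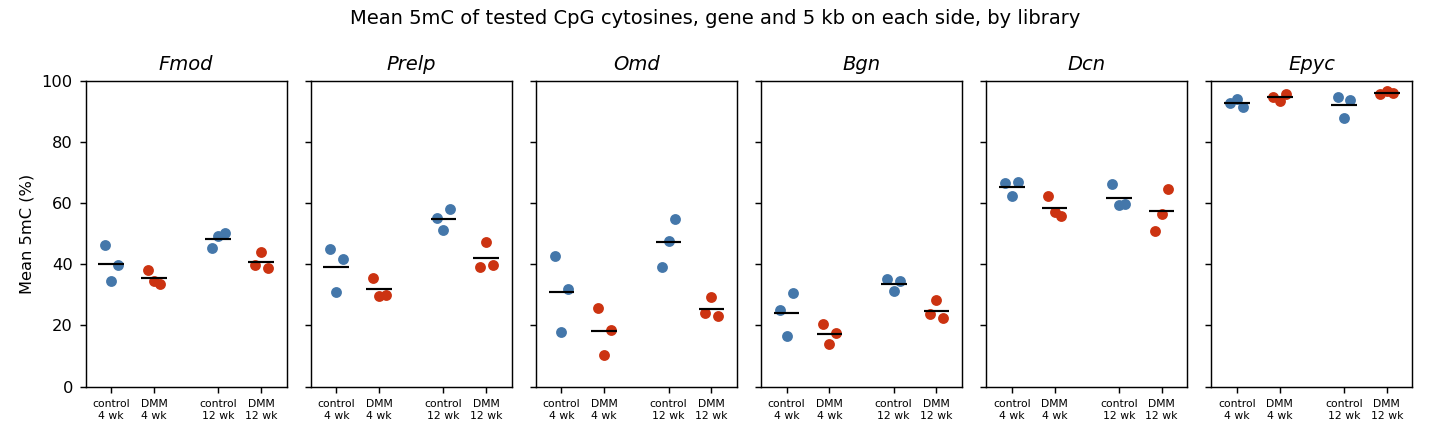
Mean 5mC (percent, axis from 0 to 100) over the tested cytosines of each of the 6 SLRP genes that had any and the 5 kb on each side, with 1 point per oxBS library and a bar at the mean of 3. At 12 weeks the DMM points of Fmod, Prelp, Omd and Bgn lie below all control points and those of Epyc, at 95.7 to 96.8%, above them, while at 4 weeks all 6 genes overlap.

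5-hydroxymethylcytosine (5hmC), the difference between the BS and the oxBS level of a cytosine, was higher in every DMM library at 1 of the 6 genes and lower at 0 at each time. Over all protein-coding genes with at least 3 cytosines, 6.54% were higher and 2.22% lower at 4 weeks and 12.2% and 2.48% at 12 weeks, and nothing is read from 1 gene of 6 beside these shares. At 4 weeks Dcn read 5.58, 15.8 and 14.1% in control and 17.6, 23.3 and 19.3% in DMM limbs over 3 cytosines (8.26 points, exact permutation p = 0.1). At 12 weeks Prelp read 2.71, 2.15 and 4.05% against 10.1, 5.08 and 8.33% over 14 cytosines (4.85 points, exact permutation p = 0.1). The DMM libraries were the higher ones in both cases, and the other gene means overlapped. The Prelp difference turned to -3.54 points in the gene body alone and was 4.68 points with at least 20 reads, each with overlap (exact permutation p = 0.6). The BS file of DMM replicate 1 at 12 weeks bears another replicate's number in its name and was taken by its label, and without that replicate the Prelp difference was 3.73 points. The mean over all cytosines was also higher in DMM libraries at 12 weeks (1.77 to 2.35% against 1.43 to 1.63%), and it overlapped at 4 weeks (2.34 to 2.86% against 1.63 to 2.63%).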

How the data were processed

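RNA-seq reads were trimmed with FLEXBAR, aligned with STAR and assigned to RefSeq transcripts (mm10) with featureCounts by the authors, and the deposited values are raw counts. The paper's methods name SMART-Seq v4 and Nextera XT libraries, whereas the labels describe poly(A) libraries. RRoxBS reads were trimmed with CUTADAPT and called with an in-house pipeline, and the labels name Bismark. The authors deposited the coverage of each CpG cytosine as counts of reads (10 or more) and the percent of reads with C or T. Each library was a pool of 3 knees, and the labels do not say which control and DMM pools share mice.

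Expression was compared with edgeR 4.0.16 under R 4.3.3, using TMM factors, filterByExpr and the robust quasi-likelihood test, at an adjusted p under 0.05 (Benjamini-Hochberg, over all transcripts), within each time, between times within each limb, and as an interaction over 12 libraries. Standard errors of log2 fold changes were derived as the absolute log2 fold change divided by the square root of edgeR's F statistic. DESeq2 1.42.0, which the study used, was an alternative. For 5mC, each cytosine's pooled oxBS reads were fitted with a logistic model and a likelihood ratio test (10 reads in each library, 25 points, q under 0.05). Gene means were compared by exact two-sided permutation, and read beside protein-coding genes with at least 3 cytosines. Intervals and tests on reads cover counting error only. Log2 CPM used a prior count of 2. Python 3.11.15, numpy 2.4.6, pandas 2.3.3 and scipy 1.17.1 were used. The tests were tested on simulated data first. The simulated oxBS reads held no spread between libraries of a group, so they cannot show how the pooled test handles such spread.

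The 10 genes, the other gene lists and the markers were chosen with earlier results of these data known. All 10 genes were named, and of each other list the genes called or else the 3 with the widest fold changes. RefSeq symbols matched 29476 of 30048 transcripts, the study's gene table gave 17, and 555 had none. All 128 SLRP cytosine entries were checked to lie on a C of a CpG in GRCm38. Replicates differed beyond counting error (chi-square per degree of freedom 44.4 to 435), so none was counted as a repeat. Protein sequences were not analysed here.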

Additional observations from a re-analysis of the deposited data

How the results depend on the processing

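All limb comparisons rest on 3 libraries a group, and the spread between pools limits them. Kera and Epyc rest on 3 to 135 counts a library at 12 weeks. Of the 10 SLRP genes, DESeq2 called 5 at 4 weeks, 5 at 12 weeks, 5 between the times in control limbs and 8 in DMM limbs, against 0, 0, 0 and 3 by edgeR. A fit of all 12 libraries called 1 at 4 weeks (Lum). Leaving out each library in turn gave 0 to 2 called at 4 weeks (2 without control replicate 3, where 118 transcripts were called), 0 to 1 at 12 weeks (1 without control replicate 2 or DMM replicate 3, with 860 and 102 transcripts called), 0 to 5 between the times in control limbs (5 without control replicate 3 of 4 weeks, with 3926) and 3 to 5 in DMM limbs (5 without DMM replicate 1 of 12 weeks, with 2971, and 4980 in all libraries). Over all transcripts, edgeR called 16 at 4 weeks and 1 at 12 weeks, and DESeq2 747 and 866. A fit of all libraries called 35 at 4 weeks, 1 transcript per gene 0, and no filter on low counts 56 at 12 weeks. Between the times DESeq2 called 2593 in control limbs, where edgeR called 0.

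Control and DMM limbs came from the same mice, but whether pools of the same number shared mice is not given in the sources used here. The numbers were therefore not taken as pairs. Same-numbered RNA libraries deviated together in some pairs and apart in others (r of 0.359, -0.326 and 0.0808 at 4 weeks and -0.548, 0.262 and -0.254 at 12 weeks). With 3 libraries a group, these values cannot show whether the pools were paired. With the replicate number as a block, edgeR called 1 SLRP gene at 4 weeks (Lum), 4 at 12 weeks (Bgn, Dcn, Lum and Omd) and 0 in the interaction, and 354 and 734 transcripts at 4 and 12 weeks. The block turned Epyc at 12 weeks to -0.49 and the interaction of Dcn to -0.015, both far from any call. It left 0 and 5 SLRP cytosines called at 4 and 12 weeks, against 58 and 2833 cytosines called in all.

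Of 2892 cytosines called in all at 12 weeks, 5 were SLRP cytosines. With a correction for overdispersion 0 SLRP cytosines were called, and 0 of 1273156 in all. With a difference of 20 points 9 were called (8581 in all), and with at least 20 reads 2 (1519 in all). Without control replicate 2 and DMM replicate 1, whose titles share a style, 2 were called (1433 in all). With both strands of a CpG merged, 4 were called (2377 in all). Without single libraries the SLRP calls numbered 1 to 6. There were 3 without control replicate 1 (3305 in all), 6 without control replicate 2 (5720) and 2 without control replicate 3 (2248). For DMM limbs there were 1 without replicate 1 (1641), 6 without replicate 2 (4362) and 3 without replicate 3 (4109). At 4 weeks 0 to 1 SLRP cytosines were called. The 1 came without control replicate 2, where 3039 of 1445146 were called in all, against 8 with all libraries. Some signs turned in single settings, and the cause was not tested. Mean 5mC of Dcn at 12 weeks was 6.29 points with at least 20 reads or in the gene body alone. Mean 5hmC was -1.11 points for Prelp and 0.349 for Omd at 4 weeks with at least 20 reads, -2.36 for Dcn at 12 weeks with at least 20 reads or in the gene body, and -3.54 for Prelp at 12 weeks in the gene body. Without single libraries, 5hmC ran from -2.76 to 6.22 points for Dcn and -0.478 to 2.12 for Fmod at 12 weeks, and from -1.08 to 1.57 for Epyc, -2.72 to 0.647 for Omd and -3.08 to 1.87 for Prelp at 4 weeks. The log2 fold change of Epyc ran from -0.088 to 1.35 at 4 weeks and -1.36 to 0.57 at 12 weeks, and that of Kera from -0.24 to 3.32 at 12 weeks. The interaction ran from -0.56 to 0.27 for Aspn, -0.23 to 0.055 for Bgn, -0.24 to 0.38 for Dcn, -2.22 to 0.11 for Epyc and -3.28 to 0.29 for Kera.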
